A study of Mus musculus with 7 samples.

Results

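The transcripts described here are those of the nuclear genes of the respiratory chain and the ATP synthase in E14 mouse embryonic stem cells (ESCs). They were chosen by symbol, as all transcripts whose gene symbol starts with Nduf (complex I), Uqcr (complex III), Cox4, Cox5, Cox6, Cox7 or Cox8 (complex IV) or Atp5 (ATP synthase), leaving out symbols with -ps. The rule found 257 of the 26792 transcripts that could be matched to the annotation, and 78 of 13218 genes with 77 symbols, since Ndufb8 has 2 gene identifiers. Of these transcripts 138 were annotated as protein coding, 56 as retained introns, 44 as processed transcripts and 17 as targets of nonsense-mediated decay. The other two belong to Atp5l2, which is annotated as a pseudogene. Cox4nb also met the rule, although it takes its symbol from its place beside Cox4i1 and is not a subunit of complex IV. By its symbol it is counted with complex IV in the group values below.

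RNA structure was probed with CIRS-seq, in which dimethyl sulfate (DMS) or the carbodiimide CMCT modifies unpaired bases and reverse transcription (RT) stops just before a modified base. Lysates of E14 cells, a line of strain 129/Ola grown on gelatin with LIF, were stripped of protein with Proteinase K and then probed. DMS was used from 50 up to 200 mM for 2 minutes and CMCT from 10 up to 50 mM for 20 minutes, beside non-treated (NT) aliquots. Doses were pooled within each treatment, and NT pools the controls of both reagents, so both comparisons share the same NT libraries. Each treatment had 2 replicates, described as biological in the study, and RNA-seq was done in 1 library of the same line. The 6 CIRS-seq libraries held 181944556 to 338201940 RT stop counts over all listed transcripts, where a position shared by isoforms is counted on each of them. All 9 ESC markers examined were listed, with 10.7 (Klf4) to 300.9 (Dppa5a) RPKM in RNA-seq. Of 14 markers of fibroblasts, endoderm, neurons and mesoderm only 4 were listed, and Col1a1, Pax6 and T lay between 0.0474 and 0.162. The neuronal tubulin Tubb3 reached 15.8.

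The respiratory chain, in the inner mitochondrial membrane, carries electrons from NADH to oxygen, and the ATP synthase uses the proton gradient it builds. Complex I accepts electrons from NADH, complex III passes them from ubiquinol to cytochrome c, and complex IV hands them to oxygen. Each of these complexes, and the ATP synthase, joins subunits made from mitochondrial DNA with a larger set made from nuclear genes and imported, and only the nuclear set is described here. Most of its subunits are small proteins with short mRNAs.

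The strongest reagent-dependent stops in the coding regions are given as selected examples. In each complex, the position with the largest treated over NT ratio, by the lower of the 2 replicates, was taken among positions with at least 20 stops in each treated replicate. Positions whose following 25 bases occur more than once in the genome were left out. The 30 bases around each position are shown on the mRNA strand, in mm9, with the chosen base as the 16th letter and with capitals for bases whose reactivity (defined below) to the named reagent was above 0.7. Bases that could not be read are also in lower case.
Atp5b, DMS: accatgAAatgattgAAtctggtgttAtca
Cox4i1, DMS: taccgcAtccAgtttAacgagagcttcGcc
Uqcrc1, DMS: gaggggcccAgtgAgAAcgtcagGaggctg
Ndufb6, DMS: AggAgacgAtGgctgAaGgAccaggAgctg
Atp5j, CMCT: gAcaAgAtaagagAgTAcaAATCAAaGCGA
Cox5a, CMCT: gcgtaaagggatgaaTacacttGTtgGcTA
Uqcrc1, CMCT: aCCTTcaacatcTcCTaCtcTGatacTggg
Ndufb11, CMCT: ccagcAagATccagTTaCCagaaGatgact

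All 4 positions chosen for DMS were A and all 4 chosen for CMCT were U, although the rule did not use the base. In Atp5b, the catalytic β subunit of the ATP synthase (chr10:127522630-127522659, plus strand), the chosen A in codon 252 had 46 and 48 stops with DMS, 3 and 2 with CMCT and 0 in both NT replicates. In Cox4i1, the ubiquitous isoform of subunit 4 of complex IV (chr8:123197123-123197152, plus strand), the A in codon 87 had 85 and 86 stops with DMS, 8 and 5 with CMCT and 2 and 0 in NT. The rule itself asked for high counts in both DMS replicates and low counts in NT, so nothing is read from that pattern. In Uqcrc1, a core protein of complex III, the window crosses a splice junction, with 23 bases at chr9:108846911-108846933 and 7 at chr9:108847405-108847411 on the plus strand. Its A in codon 207 had 23 and 22 stops with DMS, 3 and 3 with CMCT and none in NT. In Ndufb6, an accessory subunit in the membrane arm of complex I (chr4:40226287-40226316, minus strand), the A in codon 24 had 20 and 32 stops with DMS, 1 and 0 with CMCT and none in NT.

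The CMCT positions were chosen by the same rule, so their high counts with CMCT against NT were set by it. In Atp5j, coupling factor 6 of the ATP synthase stalk (chr16:84831576-84831605, minus strand), the U in codon 50 had 111 and 97 stops with CMCT, 38 and 12 with DMS and 10 and 5 in NT. In Cox5a, a subunit of complex IV (8 bases at chr9:57376872-57376879 and 22 at chr9:57378048-57378069, plus strand), the U in codon 71 had 242 and 226 stops with CMCT, 87 and 82 with DMS and 37 and 34 in NT. Only 15 bases of this window could be read, and the others are in lower case. In Uqcrc1 (chr9:108849703-108849732, plus strand), the U in codon 348 had 43 and 37 stops with CMCT, 10 and 0 with DMS and 7 and 0 in NT. In Ndufb11, an accessory subunit of complex I (chrX:20192547-20192576, minus strand), the U in codon 147 had 22 and 21 stops with CMCT, 0 and 1 with DMS and none in NT. These positions were selected for their ratio, so their size is no estimate for the others.

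How much of each mRNA could be read varied from gene to gene. What the repeated positions match elsewhere in the genome was not tested. A position was counted as found once when its following 25 bases occur once in the mm9 genome or, across a splice junction, in transcripts of 1 gene only. Of the positions of the 78 genes, 85.7% were found once, but these held only 41.3% of their 1734520 stops. Of the stops at repeated positions, 72.7% lay on Ndufs7, Ndufab1 and Atp5g1, and without these 3 genes 70.7% of stops lay at positions found once. The median gene with an annotated coding product kept 81.5% of its stops, against 15.8% over all 7943 protein-coding genes. Atp5g2, which encodes the same mature subunit c as Atp5g1 and Atp5g3, had no position found once. In 4 other genes under 50% of positions were found once: Atp5l2, Atp5l, Cox7a2l and Cox5b. Copies that differ by 1 base were not looked for. All counts below are at positions found once unless stated.

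At positions with many stops, the replicates of these genes rarely had nearly the same count. Over all genes, 19.8% to 38.6% of positions with at least 300 stops in a treatment had counts within 1 of each other in both replicates. In the respiratory chain genes this held for 1 of 53 such positions with CMCT, 0 of 25 with DMS and 0 of 23 in NT. At repeated positions it held for 2 of 80 with DMS and for none of 57 with CMCT or 51 in NT.

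RT stops per base spanned a wide range, and their coding genes had a median of 5.22 against 1.56 over all coding genes. These are raw counts, not scaled to the depth of a library. Summed over the 6 libraries, they ran from 0.237 in Atp5g1 to 61.2 in Cox8a with a median of 5.49. Cox8a, a small subunit of complex IV, had 13.0 and 7.69 stops per base in NT, 11.5 and 9.78 with DMS and 11.7 and 7.56 with CMCT, so these raw counts overlapped. With scaling to depth, DESeq2 called Cox8a lower with CMCT, as given below. Cox4i1 followed in complex IV with 5.88 and 3.05 in NT, 8.11 and 6.91 with DMS and 8.99 and 5.30 with CMCT. As raw counts, both DMS values of Cox4i1 lay above both NT values, while those with CMCT overlapped NT. In the ATP synthase, Atp5b had 5.69 and 2.95 in NT, 6.43 and 4.68 with DMS and 8.34 and 4.72 with CMCT. The pseudogene Atp5l2 came second there with 23.9 stops per base in all, read from only 17 positions.

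In complex I, Ndufa4 and Ndufa1 had the most stops per base. Ndufa4, whose product was first placed in complex I and later found in complex IV, had 6.31 and 3.31 in NT, 5.99 and 8.61 with DMS and 6.33 and 3.41 with CMCT. Ndufa1, an accessory subunit of the membrane arm, had 5.34 and 3.05 in NT, 4.94 and 8.61 with DMS and 6.89 and 2.54 with CMCT. In both genes the second DMS replicate was the highest of the 6 libraries. In complex III the most were in Uqcr11, the smallest subunit, with 2.30 and 1.57 in NT, 2.24 and 3.23 with DMS and 2.26 and 1.69 with CMCT, and in Uqcrc1 with 1.92 and 1.05, 1.94 and 1.43, and 2.85 and 1.73. Medians by group were 14.01 stops per base for complex IV, 9.05 for the F1 part of the ATP synthase, 5.72 for its other genes, 5.61 for complex III, 4.16 and 3.604 for the accessory and core subunits of complex I and 1.86 for its 2 assembly factors.

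**Figure D1:**
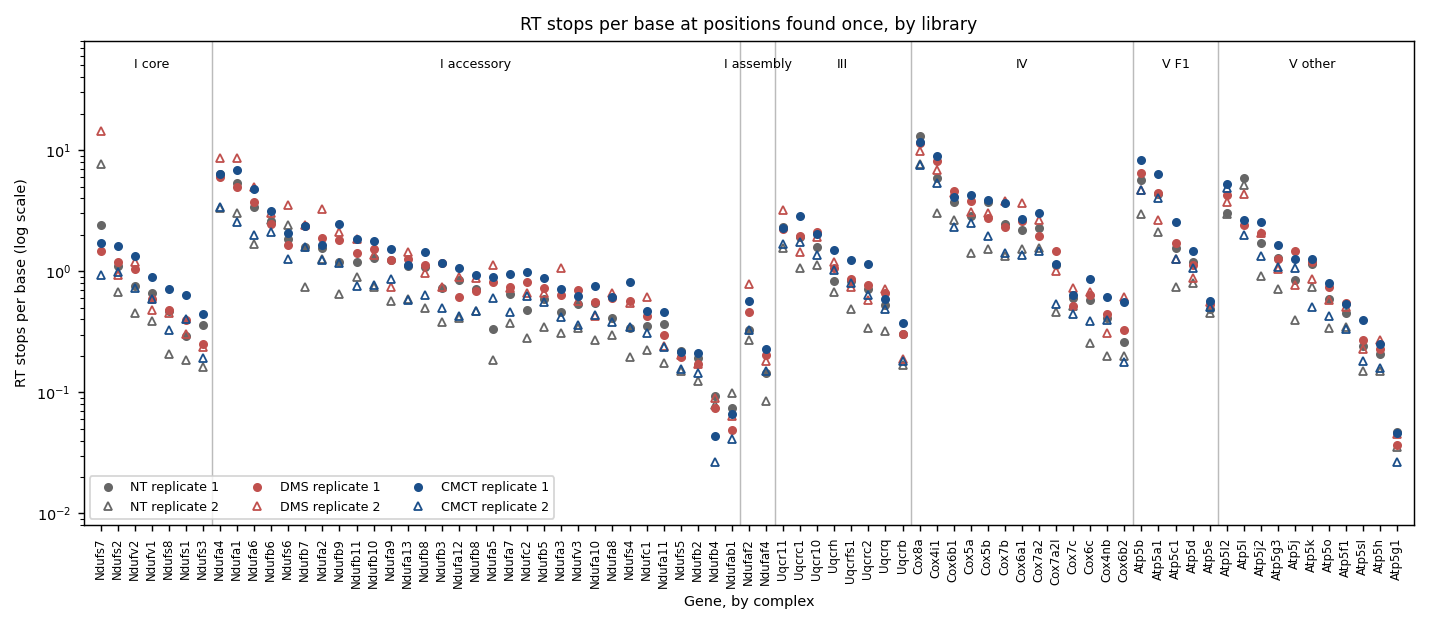
RT stops per base at positions found once (log scale) for each gene with such positions, ordered by complex and by level. Filled circles are the first and open triangles the second replicates of NT (grey), DMS (red) and CMCT (blue). Levels fell from Cox8a at 61.2 in all to Atp5g1 at 0.237, and Ndufs7 stood apart with its second NT and DMS replicates far above its other libraries.

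The other catalytic or core subunits named here by rule lay on both sides of the median of 5.49. Ndufs1, an iron-sulfur subunit of complex I, had 0.292 and 0.183 stops per base in NT, 0.393 and 0.306 with DMS and 0.639 and 0.400 with CMCT. Ndufv1, which binds FMN and accepts electrons from NADH, had 0.658 and 0.391, 0.587 and 0.479, and 0.903 and 0.586. As raw counts, not scaled to depth, both CMCT values of Ndufs1 lay above both NT values, and those of Ndufv1 overlapped NT. Uqcrfs1, the Rieske iron-sulfur protein of complex III, had 0.830 and 0.486 in NT, 0.864 and 0.740 with DMS and 1.24 and 0.797 with CMCT. Atp5a1, the α subunit of the ATP synthase, had 4.33 and 2.12, 4.45 and 2.67, and 6.30 and 4.03.

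RNA-seq gave a second measure of level, as alignments per kb of exon scaled to the alignments counted (RPKM). A bulk library cannot tell fewer cells with an mRNA from less of it per cell. Over the 77 genes with exons of their own, levels ran from 1.68 to 226.7 with a median of 20.5, against a median of 5.52 over all protein-coding genes. The highest were Cox4i1 at 226.7, Atp5b at 216.9 and Atp5a1 at 151.6. The lowest were Ndufb2 at 1.68, Uqcrq, a small subunit of complex III, at 2.48, and Ndufab1, the mitochondrial acyl carrier protein, at 3.09. All of these levels, the highest included, depend on the exons counted, since all isoforms were merged. The order of the highest genes may therefore differ on other exons. Over the exons of the chosen coding transcript alone, Ndufb2 had 21.5, Uqcrq 7.87 and Ndufab1 8.61. With a single library these levels carry no replicate error. The median of complex IV was 51.5, that of complex III 34.7, and those of the core and accessory subunits of complex I 25.0 and 16.3.

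The order of the genes was similar in both assays. Over 76 genes, Spearman's rank correlation between RNA-seq and stops per base was 0.667 with CMCT, 0.630 in NT and 0.593 with DMS. The points share the RNA-seq library and, for each pair of treatments, the same annotation of exons. Ndufs7 lay far off this order, with an RNA-seq level of 5.95 and 28.5 stops per base in all, and without it the correlation for NT was 0.677.

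**Figure D2:**
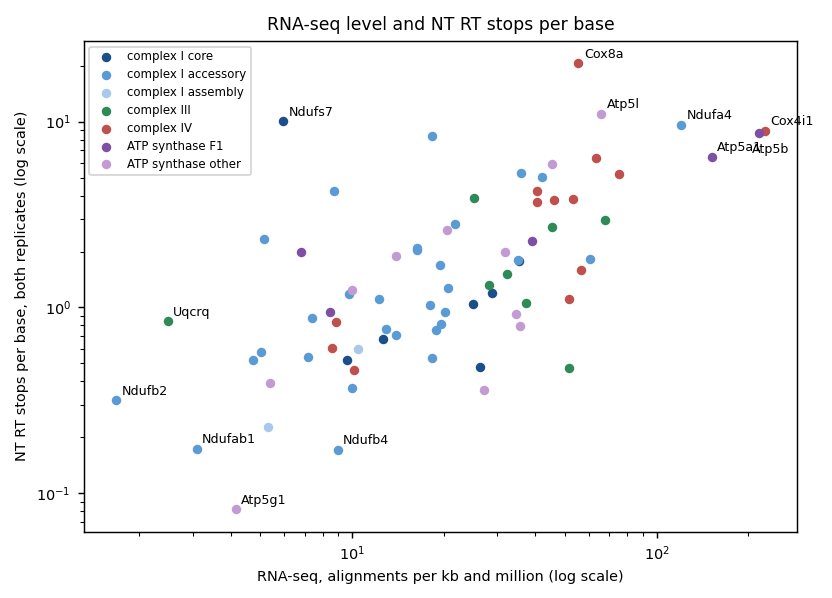
RNA-seq level (RPKM, log scale) against NT RT stops per base over both replicates (log scale), 1 point per gene coloured by complex. Cox4i1, Atp5b and Atp5a1 lie at the top right, Atp5g1 at the bottom left, and Ndufs7 far above genes of its RNA-seq level.

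The stops of Ndufs7, a core subunit of complex I that holds an iron-sulfur cluster next to the ubiquinone site, came mostly from 5 neighbouring positions in the 5′ UTR of its chosen transcript (chr10:79711896-79711900). There the NT replicates had 2549 and 10612 stops, DMS 1248 and 20305 and CMCT 1313 and 582. Over the rest of the gene the counts were 952 and 623 in NT, 916 and 800 with DMS and 1177 and 794 with CMCT. With these 5 positions the log2 ratio of CMCT to NT was -2.67, and without them it was -0.25, so the change of this gene rests on these positions, which were chosen after their values were seen. In edgeR the change with them had a standard error of 1.09 and an adjusted p of 0.164.

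The total RT stops of 1 of these genes passed the test with DMS, which does not show that the others were unchanged. The log2 change of DMS against NT ran from -1.05 to 1.60 with a median of 0.16, where all genes tested had a median of 0.11. This order did not hold throughout: the medians were 0.023 and 0.031 without the second NT replicate, 0.061 and 0.11 without the second DMS replicate, and 0.043 and 0.045 with a stricter search for positions found once. At an adjusted p under 0.05 in edgeR's quasi-likelihood test, 1 of 77 genes was called and it rose, against 1656 of 11541 genes or 14.3% over all. At an unadjusted p under 0.05 there were 9, of which 7 were higher with DMS, against 31.3% of all genes in either direction. In counts scaled to a common library size (CPM), both DMS replicates lay above both NT replicates in 18 of 77 genes, against 37.3% over all genes, and below in 8 of 77, against 27.3%. The median standard error of a change in these genes was 0.29. Scaling mattered to the medians: with DESeq2's size factors in edgeR that of all genes was 0.01 with DMS and -0.01 with CMCT, and those of the respiratory chain genes were 0.07 and -0.29.

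The gene that rose was Ndufa5, an accessory subunit in the matrix arm of complex I. It had 25.5 and 18.4 CPM in NT, 51.8 and 81.7 with DMS and 42.0 and 43.2 with CMCT. All treated libraries thus lay above both NT libraries. Its log2 change with DMS was 1.60 ± 0.32 (SE), with an adjusted p of 0.0191 in edgeR, and with CMCT it was 0.95 ± 0.31 with an adjusted p of 0.119. The adjusted p with DMS ranged from 0.000164 (DESeq2) to 0.133 over 10 alternatives. The call was lost without the first NT replicate (0.125 in edgeR), without the second NT replicate (0.133) and without the second DMS replicate (0.0928). With DMS, leaving out either NT replicate took away the calls of the whole table, not only that of Ndufa5. In the chosen transcript of Ndufa5, which does not hold all of its stops, the coding region had 0.721 and 0.255 stops per base in NT and 2.37 and 3.61 with DMS, and the 5′ UTR had 0.625 and 0.750 in NT and 0.708 and 0.875 with DMS.

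At positions found once, more genes were lower than higher with CMCT. The log2 change of CMCT against NT ran from -2.67 to 0.95 with a median of -0.20, where all genes had 0.09, and 22 of 77 genes lay above 0, against 56.7% of all genes. The median over the respiratory chain genes was -0.12 without the first and -0.32 without the second NT replicate, and -0.34 without the first CMCT replicate. In edgeR 2 of 77 genes were called and both fell, against 8.73% of all genes in either direction. At an unadjusted p under 0.05 there were 12 genes, 10 of them lower with CMCT, against 28.1% of all genes in either direction. In CPM, both CMCT replicates lay below both NT replicates in 28 of 77 genes, against 25.8% over all genes, and above in 4 of 77, against 33.6%. DESeq2 called 7 genes, all lower: Atp5f1, Atp5g1, Atp5l, Cox6b1, Cox8a, Ndufab1 and Ndufb4. Over all genes DESeq2 called 14.9%. With all listed positions, repeated ones included, the median over the respiratory chain genes was -0.038, and edgeR called Ndufa5, Ndufab1, Ndufb2 and Ndufs1, of which 2 were higher and 2 lower, against 29.0% of all genes. Group medians were -0.40 for complex IV, -0.22 for accessory and -0.04 for core subunits of complex I, -0.07 for complex III, 0.01 for the F1 part of the ATP synthase and -0.20 for its other genes.

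The 2 genes that fell were measured at few of their stops, 4.75% in Ndufb4 and 13.3% in Atp5l. Ndufb4, an accessory subunit in the membrane arm of complex I, had 5.28 and 5.72 CPM in NT, 3.47 and 4.77 with DMS and 1.51 and 1.41 with CMCT. Atp5l, subunit g of the membrane part of the ATP synthase, had 22.3 and 25.0 in NT, 7.52 and 15.4 with DMS and 6.12 and 7.14 with CMCT. In both genes the treated libraries lay below both NT libraries. The log2 changes with CMCT were -1.90 ± 0.29 and -1.84 ± 0.36 (SE), with adjusted p of 0.0103 and 0.0251 in edgeR. All 48 measured bases of Atp5l lay in its 5′ UTR. Of the coding region of Ndufb4 only 22 of 390 bases were found once, and 38.3% of the stops of the chosen Ndufb4 transcript lay at 1 position of the 5′ UTR. With all listed positions the changes were -0.29 and -0.11 with adjusted p of 0.446 and 0.766, the largest over 10 alternatives. The smallest were 0.000105 and 0.000345, both in DESeq2. Both calls were lost without the first NT replicate (0.0997 and 0.138) and without the second (0.110 and 0.173), and that of Atp5l also without the second CMCT replicate (0.0513). With DESeq2's size factors in edgeR the call of Atp5l was also lost (0.0536).

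**Figure D3:**
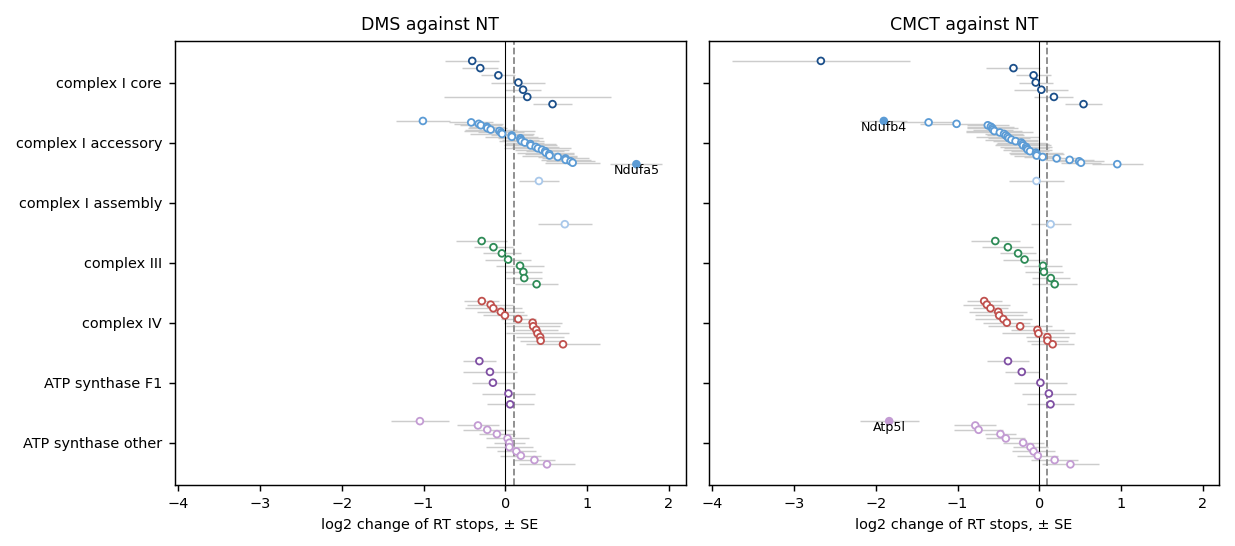
Log2 change of RT stops against NT for DMS (left) and CMCT (right), 1 point per gene with its standard error, by group. Filled points passed an adjusted p of 0.05 in edgeR, and the dashed lines are the medians over all 11541 genes (0.11 and 0.09). Ndufa5 at 1.60 is the only call with DMS, Ndufb4 and Atp5l near -1.9 are those with CMCT, and the wide bar at -2.67 is Ndufs7.

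Split by region, the changes of the 5′ UTR and of the coding region pointed in opposite directions. With DMS the median log2 change over members was -0.48 in 71 5′ UTRs, 0.45 in 69 coding regions and 0.62 in 44 3′ UTRs. Over all coding genes these medians were -0.32, 0.21 and -0.05. With CMCT the medians over members were -1.24, 0.09 and 0.28, and over all coding genes -0.60, 0.22 and 0.10. The filter on counts kept 44 of 62 measured 3′ UTRs. A 3′ UTR with almost no NT stops could pass it on treated stops, as Cox5b did (log2 change 4.08 with DMS). Nothing is therefore read from the 3′ UTR medians. Only 2 of 71 5′ UTRs lay above 0 with CMCT, against 23.0% over all coding genes, while 47 of 69 coding regions did, against 73.4%. In the main fit of edgeR, the only tool run on regions, no region passed the adjusted threshold in either comparison. This held for the 184 regions of these genes and for all 14600, where 0% were called. Among the regions of these genes the lowest adjusted p in edgeR was 0.0722 with DMS. With CMCT it was 0.0510, just above the threshold. Several 5′ UTRs shared that value, such as those of Uqcr10 (log2 change -2.21) and Ndufa9 (-1.77). With no filter or with a replicate block some were called with CMCT, as given at the end. At an unadjusted p under 0.05 there were 67 member regions with DMS and 79 with CMCT, against 27.2% and 30.2% of all regions. Over all positions, repeated ones included, 34 and 56 of 202 were called, against 13.0% and 16.6% of all regions.

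The raw stops show where the regions differ. The median 5′ UTR of these genes had 2.80 and 2.21 stops per base in NT, 2.09 and 2.56 with DMS and 2.24 and 1.20 with CMCT. The median coding region had 1.60 and 0.888 in NT, 2.34 and 2.18 with DMS and 2.66 and 1.72 with CMCT, against 0.293 and 0.158, 0.372 and 0.292, and 0.525 and 0.306 over all coding genes. These counts are not scaled to depth. The median 3′ UTR had 0.0901 and 0.0606 in NT, 0.212 and 0.205 with DMS and 0.210 and 0.161 with CMCT. In NT the coding region was above the 5′ UTR in 21 and 13 of 67 genes, with DMS in 42 and 27, and with CMCT in 44 and 42. The DMS replicates thus differed, and the second lay between NT and CMCT. Over all coding genes the shares were 55.8% and 47.6% in NT, 67.5% and 60.6% with DMS and 70.7% and 70.5% with CMCT. The coding region was above the 3′ UTR in 55 to 58 of 60 genes in each library, against 61.0% to 70.1% of all coding genes.

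These mRNAs are short, and a large share of their stops lay in the 5′ UTR. Their chosen coding transcripts had a median length of 690 bases, with a 5′ UTR of 94, a coding region of 414 and a 3′ UTR of 141, against 2376, 131, 1074 and 829 over all coding genes. The 5′ UTR held a median of 30.0% and 38.2% of a gene's stops in NT, 17.95% and 26.8% with DMS and 16.8% and 15.96% with CMCT, against 4.15% to 7.89% in the 6 libraries over all coding genes. The strongest position lay in the 5′ UTR in 35 of 74 genes, in the coding region in 38 and in the 3′ UTR in 1. Toward the 3′ end the stops fell to a median of 0.040 to 0.090 of the transcript mean between 90% and 95% of the measured length. The last 25 bases of every transcript carry no counts in these files.

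**Figure D4:**
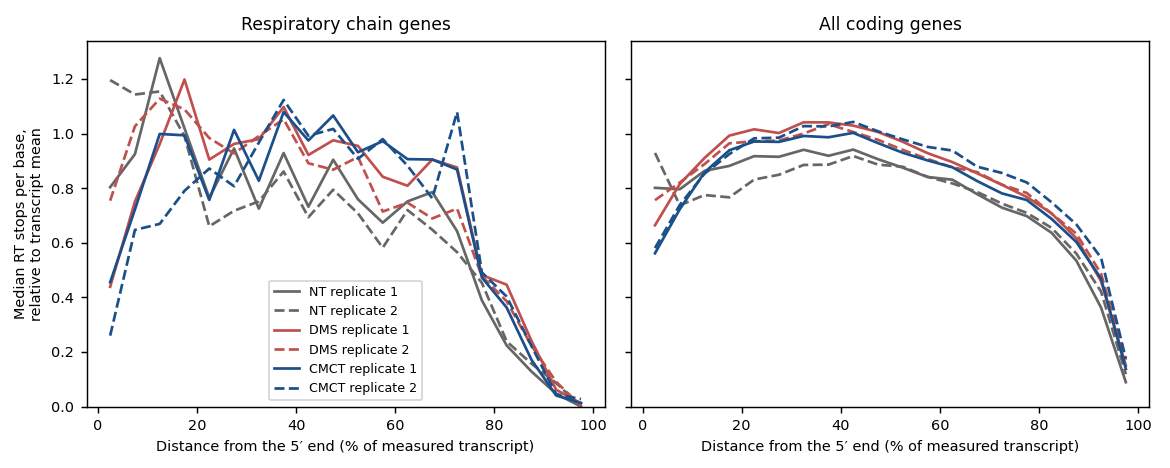
Median RT stops per base in 20 bins from the 5′ end to the last measured base, relative to the mean of each transcript and library, for respiratory chain genes (left) and all coding genes (right). Solid lines are the first and dashed lines the second replicates. NT started highest at the 5′ end of the respiratory chain genes (0.803 and 1.20), with DMS (0.439 and 0.754) and CMCT (0.455 and 0.260) lower. Over all coding genes NT also started highest (0.801 and 0.929), with DMS (0.664 and 0.756) and CMCT (0.562 and 0.580) lower. All libraries of the respiratory chain genes fell toward 0 at the 3′ end.

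Reactivity relates the stops at each base to NT. It is the log2 ratio of treated to NT stops with a pseudocount of 1, scaled to the transcript mean, set to 0 where negative or where no treated stop was seen, and scaled to the 90th percentile of the transcript so that it runs from 0 to 1. At each base the higher of both reagents' values was kept, for genes with at least 1 DMS or CMCT stop per position. Of the 75 genes with a coding transcript 72 had this depth, and 69 had a reactivity, since in Ndufa11, Ndufa12 and Ndufab1 the 90th percentile was 0 with both reagents.

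Coding regions were the most reactive part of these mRNAs. The median over genes of the mean reactivity was 0.433 in 67 coding regions, 0.226 in 66 5′ UTRs and 0.166 in 57 3′ UTRs, against 0.352, 0.239 and 0.244 over all coding genes. From the first replicates alone the medians were 0.415, 0.206 and 0.172, and from the second alone 0.418, 0.239 and 0.131. The coding region was above the 5′ UTR in 59 of 64 genes (92.2%), against 86.1% of all coding genes, and above the 3′ UTR in 54 of 57 (94.7%), against 91.4%. No test was made, since the region order was already known from these data. The 3′ UTRs had few stops, and a base with no treated stop has a reactivity of 0 by definition. The 3′ UTRs of Ndufb10 and Ndufv3 had no DMS or CMCT stop and so a reactivity of 0. In the 10 genes with at least 5 DMS and CMCT stops per base in the 3′ UTR its median was 0.356, and the coding region was above it in 8 of 10. Over all coding genes of that depth the median was 0.342 and the share 80.2%, so the 3′ UTRs of the respiratory chain genes were not below those of all coding genes there. At that depth in both UTRs, the 3′ UTR was above the 5′ UTR in 8 of 10 genes. Without the depth limit it was above in 19 of 55, so the order of the UTRs turned. Over all coding genes these shares were 69.4% and 51.0%. These 10 are a subset of the 57 genes, and the part of depth in the low 3′ UTR values was not tested. The 5′ UTR median at that depth was 0.235 in 47 genes, against 0.299 over all coding genes. The coding median at that depth was 0.465 in 50 genes, against 0.417 over all coding genes, a smaller gap than without the depth limit. The part of depth in the coding values was not tested either.

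The order held in most complexes. The coding median was 0.470 in complex IV, 0.462 in complex III, 0.429 in accessory and 0.375 in core subunits of complex I, 0.422 in the F1 part of the ATP synthase and 0.490 in its other genes. The highest coding region was Cox7b, a small subunit of complex IV, with 0.746 (0.699 and 0.766 from each replicate alone), followed by Cox5b with 0.636 (0.659 and 0.582), where only 48 of 390 coding bases were read. The lowest were Atp5sl with 0.288, Cox7a2l, a factor of supercomplex assembly, with 0.290 (0.276 and 0.182) from 47 of 336 bases, and Ndufaf2, a complex I assembly factor, with 0.305 (0.262 and 0.237). In these 3 genes the 5′ UTR was above the coding region, as it was in Ndufa2 and Ndufa8, which makes all 5 exceptions. These extremes were picked after their values were seen. Depth differed as well, with 57.2 DMS and CMCT stops per coding position in Cox7b and 23.5 in Cox5b. Atp5sl had 1.03, Cox7a2l 3.47 and Ndufaf2 1.55, and the part of depth was not tested.

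Among the core and catalytic genes the coding regions lay close together. Atp5b had 0.406 (0.419 and 0.420 from each replicate alone), Atp5a1 0.415 (0.412 and 0.391), Cox4i1 0.413 (0.414 and 0.391), Cox5a 0.455 (0.436 and 0.437), Uqcrc1 0.404 (0.390 and 0.371) and Uqcrfs1 0.393 (0.400 and 0.376). Ndufs1 had 0.353 (0.340 and 0.322) and Ndufv1 0.335 (0.332 and 0.350), and no replicate value of these 2 reached any of the others. At 2.41 and 3.63 DMS and CMCT stops per coding position, these 2 were also the least covered. The others ran from 4.90 (Uqcrfs1) to 56.6 (Atp5b), and the part of depth was not tested. The 5′ UTRs of the core and catalytic genes were far more spread, from 0.0151 in Atp5b and 0.0723 in Atp5a1 to 0.393 in Cox4i1, where the replicates gave 0.375 and 0.379. The 5′ UTR of Atp5b, at 39.6 DMS and CMCT stops per base, had 0.00841 and 0.0484 from each replicate alone, so the replicates differed widely. Exceptions at the 3′ side were Atp5c1, the central stalk γ subunit, with 0.649 in 29 measured bases of its 3′ UTR (0.578 and 0.561) against 0.423 in its coding region, and Cox7a2l. In Atp5g3 both regions had 0.447.

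**Figure D5:**
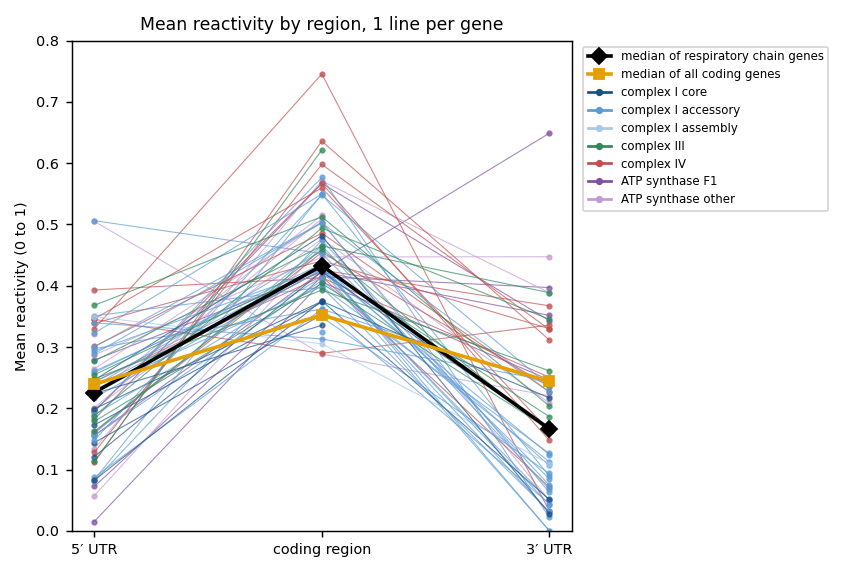
Mean reactivity (0 to 1) of 5′ UTRs, coding regions and 3′ UTRs, 1 thin line per gene coloured by group, with the medians of the respiratory chain genes (black diamonds: 0.226, 0.433, 0.166) and of all coding genes (orange squares: 0.239, 0.352, 0.244). Most lines peak at the coding region.

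Within codons the first base had the highest median. Over 61 genes the medians were 0.472, 0.436 and 0.415 for the codon bases in order, against 0.367, 0.348 and 0.335 over all coding genes. The first base was above the last in 51 of 61 genes (83.6%), against 79.8%, and above the middle base in 39 (63.9%), against 70.6%. When reactivities were set relative to the average for A, C, G or U, the medians became 1.60, 1.41 and 1.48, so the order of the last 2 bases turned. With CMCT alone the medians were 0.292, 0.289 and 0.290, and the first base was above the middle base in 28 of 60 genes (46.7%) and above the last in 34 of 60 (56.7%). The bases just before the start codon, with its first base, had a median of 0.431 in 56 genes, against 0.382 over all coding genes. The stop codon and the codon before it had 0.402 in 47 genes, against 0.333. This gap was not stable. The value was 0.325 with a pseudocount of 5, and 0.336 and 0.333 from the first and second replicates alone. Over all coding genes it stayed at 0.333 in each of these settings. Neither the start nor the stop value lay above the median of 0.433 over whole coding regions.

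The reagents differed in the bases they marked in these mRNAs. With DMS, which methylates unpaired A and C, the mean log2 ratio to NT was 1.31 at A, 0.05 at C, -0.21 at G and -0.45 at U. A and C lay above G and U by 1.00, with 0.73 from the first and 1.08 from the second replicate alone, against 0.77 over all coding genes. With CMCT, which modifies unpaired U and to a lesser extent G, the means were 0.61 at U, 0.14 at A, 0.06 at G and -0.12 at C. G and U lay above A and C by 0.34, with 0.39 and 0.14 from each replicate alone, against 0.22 over all coding genes. Of the highly reactive bases (above 0.7) with DMS 51.3% were A and 21.4% C, and with CMCT 36.2% were U, 24.4% G, 20.1% C and 19.3% A. Of all A, 31.8% were highly reactive with DMS. With CMCT 24.6% of U were, while G at 14.4% lay close to A at 13.2% and C at 12.8%.

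Genes with paralogs differed in how much could be read and in level. The subunit c genes make the same proton-carrying ring of the ATP synthase. Atp5g3 was found once at 99.1% of its positions and had 1.27 and 0.715 stops per base in NT, 1.27 and 1.05 with DMS and 1.64 and 1.09 with CMCT. Atp5g1 kept 64.8% of its positions but 0.730% of its stops, with 0.0265 to 0.0471 per base in the 6 libraries. Its chosen transcript of 4715 bases is far longer than those of its relatives. By RNA-seq Atp5g2 had 52.0, Atp5g3 31.9 and Atp5g1 4.16 RPKM, a comparison in which reads with several places are included. Of these alignments 0.909% in Atp5g2, 96.2% in Atp5g3 and 22.5% in Atp5g1 were of reads listed once, so the level of Atp5g2 rests almost wholly on reads with several places. Over the exons of the chosen transcript alone Atp5g3 had 90.8 and Atp5g2 52.0, so their order turned. Of the complex IV genes with tissue isoforms, Cox6a1 had 14.01 stops per base in all and 40.6 by RNA-seq, Cox7a2 13.0 and 53.2, Cox7a2l 5.74 and 56.4, and Cox8a 61.2 and 55.4. Their partners Cox4i2, Cox6a2, Cox7a1 and Cox8b, known from lung, heart or muscle, were not analysed here. Cox6b2, known from testis, was listed with 2.13 stops per base and 10.1 by RNA-seq.

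Genes of the same pathway outside the rule were tested in the same fit. Of 35 such genes (complex II, cytochrome c, assembly factors, regulators and the mitochondrially encoded subunits) 31 were listed and 26 tested. In edgeR 1 was lower with DMS and 2 with CMCT, and none was higher. At an adjusted p under 0.05 these are read against the 14.3% and 8.73% of all genes. Nrf1, a transcription factor of nuclear respiratory genes, was lower with both, by -1.33 ± 0.22 (SE, adjusted p = 0.0103) and -1.10 ± 0.22 (adjusted p = 0.0247). The mitochondrially encoded mt-Nd3 of complex I was lower with CMCT by -1.92 ± 0.41 (adjusted p = 0.0328). The complex II genes Sdha, Sdhb, Sdhc and Sdhd changed by 0.00, 0.23, 0.15 and -0.18 with DMS, none of which passed the test.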

How the data were processed

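CIRS-seq was done on E14 mouse ESCs in 6 libraries (NT, DMS and CMCT, 2 replicates each), and RNA-seq in 1. The authors aligned reads to mm9 (Bowtie 1.0.0 and bedtools 2.17.0 for CIRS-seq and TopHat2 2.0.6 for RNA-seq are named in the submitters' processing notes) and deposited raw RT stop counts at each position of each transcript, not normalized, and RNA-seq alignments as genomic intervals with no value column. How reads with several places were treated is not given in the sources used here, so the analysis used positions whose following 25 bases were found once. A position shared by isoforms of a gene entered once. The tested counts were 11054292 to 20588726 per library. The members and lists were chosen with earlier results of these data known.

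Counts were tested in edgeR 4.0.16 (R 4.3.3; quasi-likelihood test, TMM scaling, filterByExpr, 1 fit over 6 libraries), with Benjamini-Hochberg adjustment over all genes or regions and a threshold of 0.05. DESeq2 1.42.0 was an alternative. The steps were tested on simulated data. Regions came from the coding transcript of a gene with the most stops per base over all its positions, repeated ones included. Reactivity was computed with NumPy 2.4.6 for regions of at least 20 positions. RNA-seq alignments were counted by their leftmost base without strand, per kb of merged exons used by 1 gene and scaled to the alignments counted (RPKM). P-values set a change against the spread between replicates, pooled over NT, DMS and CMCT and drawn toward that of the other genes or regions. Antisense and overlapping genes cannot be told apart by RNA-seq.

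Genes were named where they had the most stops per base in a complex (2 each), were called, were core or catalytic subunits or paralogs on fixed lists, or were the 3 highest or lowest by RNA-seq. Others were named after their values were seen. Sequence windows also had to lie wholly in the coding region, a condition added later. Alternatives were all listed positions, a stricter search, other scaling, no filter, a replicate block, leaving out each library, and other reactivity settings. Replicate numbers are not said to mark a shared culture.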

Additional observations from a re-analysis of the deposited data

How the results depend on the processing

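Calls rested on few libraries. With DMS 1 gene was called, and 2 were with all listed positions or with the replicate block, while leaving out 1 library gave 0 to 1. It was 0 without either NT replicate, and without the second DMS replicate Atp5l was called in place of Ndufa5. With CMCT 2 were called, 4 with all listed positions (2 higher, 2 lower), 1 with DESeq2 size factors, 7 in DESeq2 and 3 with the replicate block. Leaving out 1 library gave 0 to 4, with 0 without either NT replicate, 4 without the first and 1 without the second CMCT replicate. Over all genes the counts were 3485 with DMS and 3827 with CMCT at all listed positions, 948 and 518 with size factors, 2299 and 1472 (19.9% and 12.8%) with the replicate block, 1832 in DESeq2 with CMCT, and 17 and 99 with CMCT without the first or second NT replicate. Without the first or second CMCT replicate they were 3044 and 479. No region was called except with all listed positions (34 with DMS, 56 with CMCT, against 13.0% and 16.6% of all regions), with no filter (9 with CMCT, against 1.64%) and with the replicate block (9 with CMCT, against 2.22%). By their labels the samples of different treatments share only a replicate number. Differences between the first and second replicates correlated over 11541 genes at 0.430 (NT and DMS), -0.0133 (NT and CMCT) and 0.0414 (DMS and CMCT). Same-numbered NT and DMS libraries thus moved in part together. The main fit did not use this pairing, while the replicate block did.

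The median reactivities of 5′ UTRs, coding regions and 3′ UTRs were 0.144, 0.280 and 0.107 from DMS alone, 0.120, 0.301 and 0.103 from CMCT alone and 0.160, 0.346 and 0.116 with scaling over positions above 0. With preferred bases the first 2 were 0.161 and 0.372, and with a pseudocount of 5 the last 2 were 0.413 and 0.121. Divided by base means, an alternative added after seeing the data, they were 0.812, 1.49 and 0.572. With at least 5 stops per position, also added, the last 2 were 0.465 and 0.356, and the coding region was higher in 38 of 39 and 8 of 10 genes. A single replicate gave 0.206 to 0.239, 0.415 to 0.418 and 0.131 to 0.172. The DMS base preference was 0.51 with a pseudocount of 5 and 0.73 to 1.08 in 1 replicate, and that of CMCT 0.14 to 0.39.

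Spearman's rank correlation with RNA-seq for NT, DMS and CMCT was 0.477, 0.496 and 0.602 with all listed positions and 0.510, 0.467 and 0.536 with coding exons (added). With reads listed once (added) it was 0.569 for NT and 0.651 for CMCT, and without Ndufs7 (added) 0.677 and 0.685. A single replicate gave 0.614 to 0.655, 0.555 to 0.645 and 0.651 to 0.670. The causes were not tested.

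Of 480 alternatives for named genes 417 kept direction and side of the threshold, 11 lost a call, 11 gained one and 41 changed sign, none of them called in either fit. In DESeq2 the log2 change was -0.052 in Atp5b and -0.066 in Atp5l2 with DMS, and -0.071 in Atp5b, -0.041 in Uqcrc1 and -0.034 in Uqcrfs1 with CMCT. With all listed positions the log2 change was -0.093 in Atp5b and 0.14 in Ndufb4 with DMS, and -0.014 in Atp5b and 0.0035 in Ndufv1 with CMCT. With the stricter search the log2 change was -0.033 in Atp5b, -0.017 in Atp5l2 and -0.21 in Uqcr11 with DMS, and -0.063 in Atp5b with CMCT. With DESeq2's size factors in edgeR the log2 change was -0.056 in Atp5b and -0.070 in Atp5l2 with DMS, and -0.077 in Atp5b, -0.046 in Uqcrc1 and -0.038 in Uqcrfs1 with CMCT. Leaving out 1 library, the log2 change with DMS ran from -0.49 to 0.063 in Atp5a1, -0.19 to 0.20 in Atp5b, -0.28 to 0.26 in Atp5l2, -0.40 to 0.22 in Cox7a2, -0.018 to 0.71 in Cox7a2l, -0.18 to 0.81 in Ndufa1, -0.090 to 0.62 in Ndufa4, -0.22 to 0.49 in Uqcr11 and -0.20 to 0.0080 in Uqcrfs1. Leaving out 1 library, the log2 change with CMCT ran from -0.13 to 0.33 in Atp5a1, -0.21 to 0.18 in Atp5b, -0.19 to 0.43 in Atp5l2, -0.12 to 0.26 in Cox4i1, -0.15 to 0.30 in Cox5a, -0.14 to 0.16 in Uqcrc1 and -0.087 to 0.12 in Uqcrfs1.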
